A study of Mus musculus with 3 samples.

Results

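The histone cluster genes of mouse were examined in the transcript models of a testis study. They were taken by name, as every model whose gene symbol begins with Hist1h, Hist2h, Hist3h or Hist4h. This gave 67 genes with 74 models, of 22426 genes with a RefSeq-derived model and 50081 models in all. The study used testes of wild-type C57BL/6J mice and had 1 CAGE library at 10.5 days post partum, 1 CAGE library of adults and 1 PAS-Seq library of adults (read length 100 nt). Both assays started from total RNA. CAGE captures the 5′ end of RNAs that carry a cap, and PAS-Seq the 3′ end of those with a poly(A) tail. The analysed data were 1 table of transcript models for the whole series, with no value for any library. The depth is therefore unknown, no level of expression was measured and no comparison between the libraries was possible. The sources used here do not say how the reads set the starts and ends of models.

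Histones package DNA into nucleosomes. The core histones H2A, H2B, H3 and H4 form the particle on which DNA is wound, and the linker histone H1 binds where the DNA enters and leaves it. Most genes in the histone clusters are known to be replication-dependent: they are used during DNA synthesis, lack introns, and their mRNAs end in a stem-loop and not in a poly(A) tail. The testis adds its own variants, among them the linker histone H1t (Hist1h1t) and the core histones TH2A (Hist1h2aa) and TH2B (Hist1h2ba), before most histones of the spermatid are replaced by transition proteins and protamines.

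RefSeq-derived models made up 68 of the 74, and the other 6 were CUFF models, which have a gene symbol and a transcript name beginning with CUFF, the prefix used by the Cufflinks assembler. Each model also carried a code, and the 6 CUFF models are those whose code contains _N. By class, as read from the symbols, there were 6 H1, 18 H2A, 18 H2B, 12 H3 and 13 H4 genes. Each was placed on an assembled chromosome of mm9, the build of all positions below unless another is named.

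The Hist1 cluster on chromosome 13 (21807632 to 24026720) held 53 of the 67 genes, and all 6 linker genes were in it. It had 13 H2A, 14 H2B, 9 H3 and 11 H4 genes, 30 of the 53 on the plus strand and 23 on the minus strand. Its genes lay in 4 blocks when a gap of more than 100 kb was taken as a boundary. The first block (21807632 to 21904019) had 17 genes in 96.4 kb, with 1 linker gene, Hist1h1b. The second (22127035 to 22135479) had 5 genes in 8.45 kb, all of class H2A, H2B or H4. The third (23622874 to 23856283) had 29 genes in 233 kb and carried the other 5 linker genes, Hist1h1a, Hist1h1c, Hist1h1d, Hist1h1e and the testis gene Hist1h1t. The last (24021759 to 24026720) consisted of the testis pair Hist1h2ba and Hist1h2aa, which stood 165.5 kb from the rest.

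Genes of other families filled the gaps. The widest gap, 1487 kb after the second block, held 41 other genes with a RefSeq-derived model, of which 36 were vomeronasal receptors of the Vmn1r family, which serve pheromone sensing. A gene was counted as coded when at least 1 of its models had a code that does not begin with XX. What the code stands for is not stated in the labels, so it is read here as a label and not as expression. In the Hist1 cluster 52 of 53 histone genes were coded, against 6 of the 51 other genes between its ends (11.8%, exact 95% interval 4.44 to 23.9): Zfp184, Pom121l2, Vmn1r204, Zfp322a, Abt1 and Hfe. The Vmn1r genes weighed on this share, with 1 of 36 coded, and of the other 15 neighbours 5 were coded (33.3%, 11.8 to 61.6). Over all clusters 66 of 67 histone genes were coded (98.5%, lower bound 92.0%), and over all genes with a RefSeq-derived model the share was 62.3%.

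**Figure D1:**
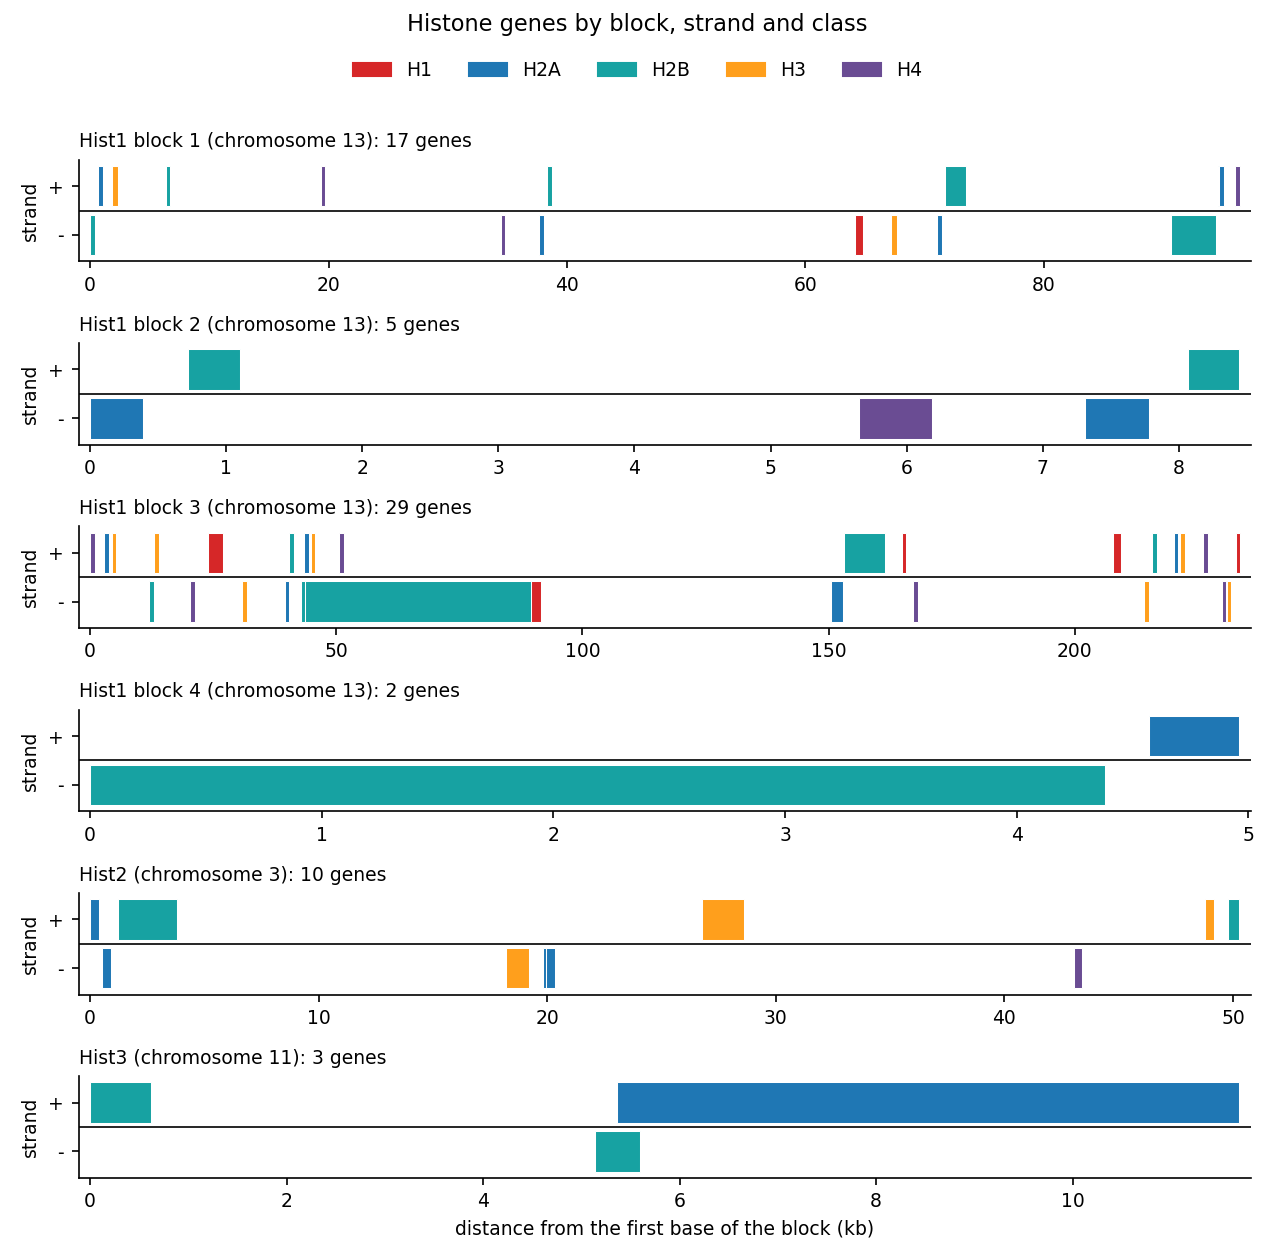
Position of each gene in kb from the first base of its block, above the line for the plus strand and below it for the minus strand, coloured by histone class; bars run from the first to the last base of all models of a gene, with short genes drawn over long ones and at a minimum width. The large bars are Hist1h2be, whose models span up to 48569 bp, Hist1h2ba and Hist3h2a; Hist4h4, alone on chromosome 6, is not drawn.

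The smaller clusters had no linker gene. Hist2 on chromosome 3 (96023839 to 96074115) held 10 genes in 50.3 kb: 4 H2A, 2 H2B, 3 H3 and 1 H4. Hist3 on chromosome 11 (58762413 to 58774111) held Hist3h2a, Hist3h2ba and the pseudogene Hist3h2bb-ps. Hist4h4 stood alone on chromosome 6 (136750074 to 136752952, minus strand). The start of H2afj, a replacement H2A gene outside the cluster naming, lay 3817 bp from it on the other strand.

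The single gene with XX models alone was Hist1h1a, which encodes the linker histone H1.1. Its RefSeq-derived model was a single exon of 747 nt (chromosome 13, 23855537 to 23856283, plus strand). The table had 2 further models at the same start, named for a piRNA locus as pi-Hist1h1a: one with the same end and length, and one of 679 nt that ended 68 nt earlier. PIWI-interacting RNAs are small germline RNAs cut from long single-stranded transcripts. Over all genes, 14 RefSeq-derived models had exactly the exons of a piRNA-named model, and 14 of these 14 were coded XX. Among the 144 RefSeq-derived models of genes whose symbol names a piRNA locus, 138 were. The 14 include that of Hist1h1a. For scale, 62.3% of all genes with a RefSeq-derived model had a code other than XX, a share counted per gene and not per model. Hist1h1a was thus coded like most RefSeq-derived models of genes whose symbol names a piRNA locus.

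Pairs of H2A and H2B genes shared their start regions. With starts on opposite strands facing away from each other by 1 to 500 bp, 13 head-to-head pairs were found, and in all 13 an H2A gene faced an H2B gene. They took in 25 genes, 13 of the 18 H2A and 12 of the 18 H2B genes, since Hist1h2br faced both Hist1h2ao and Hist1h2ap. No H1, H3 or H4 gene had a partner of any kind at this distance. The share of histone genes with a partner was 37.3% (lower bound of the exact 95% interval 25.8%), and over all genes with a RefSeq-derived model it was 11.3%. The difference was not tested, and the members of a pair are not independent.

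Starts of the pairs lay 140 to 335 bp apart, with a median of 268 bp. The closest was Hist1h2ac with Hist1h2bc at 140 bp, followed by Hist1h2br with Hist1h2ao at 168 bp. Hist3h2bb-ps and Hist3h2a were 173 bp apart from the RefSeq start of Hist3h2a, whose CUFF model starts inside its partner, and Hist1h2ae and Hist1h2bg 180 bp. The testis pair Hist1h2ba (TH2B) and Hist1h2aa (TH2A) had starts at 24026140 and 24026331, 191 bp apart. Then came Hist1h2an with Hist1h2bp at 239 bp, Hist1h2br with Hist1h2ap at 268 bp, Hist2h2ac with Hist2h2be at 277 bp, and Hist1h2bl with Hist1h2ai at 279 bp. Hist1h2ag with Hist1h2bj and Hist1h2bf with Hist1h2ad were both at 281 bp, Hist1h2ak with Hist1h2bn at 296 bp, and Hist1h2ah with Hist1h2bk was the widest at 335 bp.

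CUFF models brought 3 of these pairs closer. With RefSeq-derived starts alone the distance was 240 bp for Hist1h2ac with Hist1h2bc, 306 bp for the testis pair and 270 bp for Hist1h2an with Hist1h2bp. The pairs then ranged from 168 to 335 bp, with a median of 277 bp. Many RefSeq-derived models have the length of the coding region alone, as described below, so distances taken from them include untranslated sequence. The next closest pair of any classes was Hist1h2bh with the H3 gene Hist1h3f at 700 bp, followed by Hist1h3c with Hist1h2bb at 1213 bp. H2A and H2B genes without a close partner were Hist1h2ab, Hist1h2af, Hist2h2aa1, Hist2h2aa2 and Hist2h2ab, and Hist1h2bb, Hist1h2be, Hist1h2bh, Hist1h2bm, Hist2h2bb and Hist3h2ba.

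**Figure D2:**
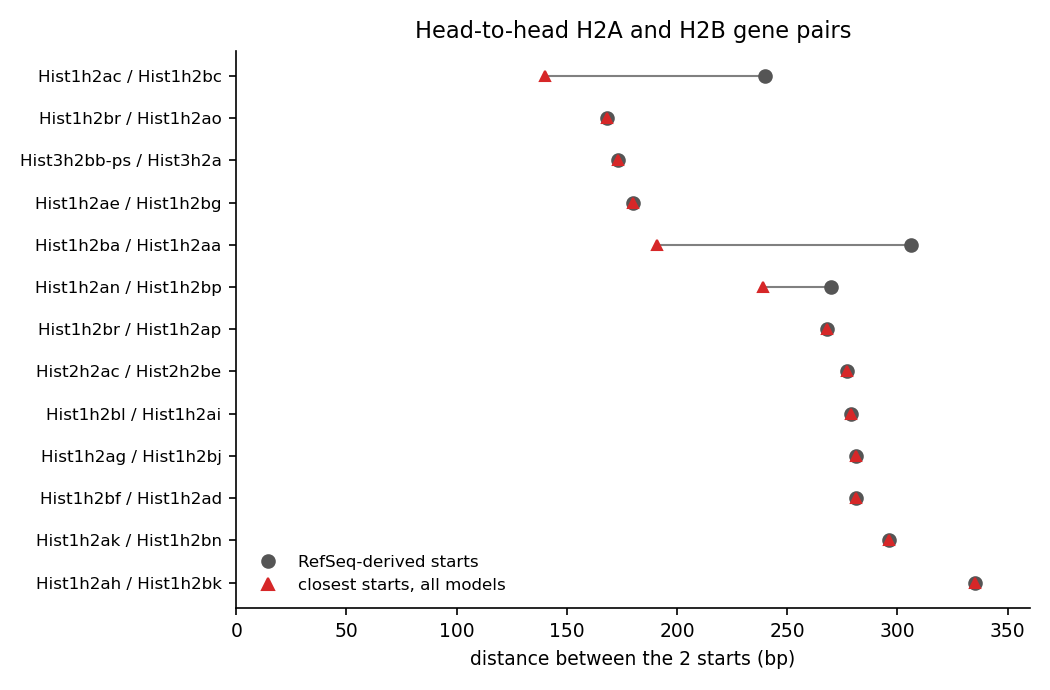
Distance in bp between the starts of each of the 13 head-to-head pairs, with grey circles for RefSeq-derived starts alone and red triangles for the closest starts of all models. The 3 pairs with a line between the symbols have a CUFF model that starts nearer to the partner; the others are at 1 position between 168 and 335 bp.

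Promoter sequences came from RefSeq (GRCm38.p6), as windows of 250 bases before to 50 after the start. By RefSeq accession 66 of the 67 genes matched that annotation, all but Hist3h2bb-ps, and 61 had a window, with 2 for Hist1h2be and 62 windows in all; Hist1h2bc, Hist1h3a, Hist1h3f, Hist2h2be and Hist2h4 had none. In 9 of the 10 pairs with windows for both genes the starts were again head to head, 134 to 281 bp apart (median 180 bp), so that in 8 of them the window of a gene reached the start of its partner. Hist1h2br and Hist1h2ao were not close neighbours there. Each window was searched on both strands for TATAAA (called the TATA box here), the CCAAT box by those letters, ATGCAAAT (octamer), AAACACA (the H1 box known from linker histone promoters), TGACGTCA (cyclic AMP response element), CAACTG (a MYB site) and a second MYB form, TAACTG. The MYB forms were included because the transcription factor studied in the series is the meiotic MYB protein A-MYB. None of these motifs contains another, but matches can overlap. A match is a run of letters and not a bound site. A gene was counted when any of its windows had a match, and the same count was made over all 27025 genes of the RefSeq table, which have 32851 windows.

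Below are the windows of the 3 testis variants, of a replication-dependent H2A gene from a close pair (Hist1h2ae), of an H4 gene (Hist1h4h), of the piRNA-named linker gene Hist1h1a and of Hist3h2a, each 5′ to 3′ on the strand of its gene, with every match to a searched motif on either strand in capitals. The window of Hist1h1t is chr13:23695561-23695860 (plus strand), that of Hist1h2ba chr13:23934107-23934406 (minus), of Hist1h2aa chr13:23934187-23934486 (plus), of Hist1h2ae chr13:23571171-23571470 (minus), of Hist1h4h chr13:23530794-23531093 (plus), of Hist1h1a chr13:23763418-23763717 (plus) and of Hist3h2a chr11:58954435-58954734 (plus), all in GRCm38.p6.
Hist1h1t: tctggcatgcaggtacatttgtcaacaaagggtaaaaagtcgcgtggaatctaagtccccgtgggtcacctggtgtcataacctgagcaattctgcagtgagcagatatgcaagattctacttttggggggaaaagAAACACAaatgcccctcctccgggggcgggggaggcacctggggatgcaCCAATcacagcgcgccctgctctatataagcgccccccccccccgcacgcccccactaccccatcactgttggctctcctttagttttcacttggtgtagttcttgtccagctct
Hist1h2ba: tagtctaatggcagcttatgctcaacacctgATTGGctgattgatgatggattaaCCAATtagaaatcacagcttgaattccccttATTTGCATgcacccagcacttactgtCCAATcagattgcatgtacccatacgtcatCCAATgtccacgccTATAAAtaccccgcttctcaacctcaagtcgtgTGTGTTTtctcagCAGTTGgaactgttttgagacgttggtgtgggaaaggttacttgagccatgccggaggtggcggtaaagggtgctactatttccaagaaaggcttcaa
Hist1h2aa: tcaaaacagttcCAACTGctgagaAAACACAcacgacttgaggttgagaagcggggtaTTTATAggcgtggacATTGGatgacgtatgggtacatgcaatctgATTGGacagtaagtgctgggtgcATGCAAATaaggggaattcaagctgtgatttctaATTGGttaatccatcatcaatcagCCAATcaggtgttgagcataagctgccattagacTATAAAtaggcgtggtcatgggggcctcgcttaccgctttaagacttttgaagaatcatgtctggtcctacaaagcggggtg
Hist1h2ae: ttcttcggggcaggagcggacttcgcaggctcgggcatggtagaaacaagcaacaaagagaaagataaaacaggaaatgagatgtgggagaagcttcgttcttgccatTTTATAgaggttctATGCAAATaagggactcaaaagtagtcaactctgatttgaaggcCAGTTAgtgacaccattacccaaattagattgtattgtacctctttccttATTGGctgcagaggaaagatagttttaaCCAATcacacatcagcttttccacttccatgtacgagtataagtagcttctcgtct
Hist1h4h: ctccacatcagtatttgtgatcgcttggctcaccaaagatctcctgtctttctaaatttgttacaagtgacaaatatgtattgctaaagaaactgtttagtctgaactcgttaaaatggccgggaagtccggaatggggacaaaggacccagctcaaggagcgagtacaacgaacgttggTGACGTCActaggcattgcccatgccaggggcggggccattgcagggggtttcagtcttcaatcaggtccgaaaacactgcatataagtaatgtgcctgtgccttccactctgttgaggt
Hist1h1a: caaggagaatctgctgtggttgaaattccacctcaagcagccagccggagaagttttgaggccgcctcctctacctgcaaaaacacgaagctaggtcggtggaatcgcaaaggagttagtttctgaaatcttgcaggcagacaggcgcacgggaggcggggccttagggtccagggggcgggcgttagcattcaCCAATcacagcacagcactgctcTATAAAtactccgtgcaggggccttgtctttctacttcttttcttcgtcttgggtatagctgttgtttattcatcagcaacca
Hist3h2a: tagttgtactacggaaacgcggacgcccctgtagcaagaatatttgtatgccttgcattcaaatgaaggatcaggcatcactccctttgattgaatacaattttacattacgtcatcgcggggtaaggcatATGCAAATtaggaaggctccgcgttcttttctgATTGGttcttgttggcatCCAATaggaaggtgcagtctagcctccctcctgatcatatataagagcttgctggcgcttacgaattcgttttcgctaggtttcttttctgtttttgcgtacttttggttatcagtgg

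Positions here are those of the first base of a match relative to the RefSeq start. The window of Hist1h1t had an H1 box at -114, a CCAAT box at -65 and no match to TATAAA. Hist1h2ba and Hist1h2aa share 220 bases, read from opposite strands. Within them lie 1 octamer, 4 CCAAT boxes, a TATA box at -94 of Hist1h2ba, an H1 box match and a CAACTG match, each seen from both genes. Hist1h2aa had a further TATA box at -32. Hist1h2ae had an octamer at -128, 2 CCAAT boxes, and a TATA box and a TAACTG match on the other strand. Hist1h4h had 1 match, a cyclic AMP response element at -70. Hist1h1a had a TATA box at -33, a CCAAT box at -56 and no match to the H1 box, and Hist3h2a had an octamer and 2 CCAAT boxes.

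Motif content differed by histone class, which was counted and not tested. The CCAAT box was found for 52 of 61 genes (85.2%, exact 95% interval 73.8 to 93), against 41.1% of all genes and 37.4% of all windows. It was found for each of the 6 H1, 18 H2A, 15 H2B and 10 H3 genes but for 3 of 12 H4 genes (25%, 5.49 to 57.2), Hist1h4a, Hist1h4c and Hist1h4d. TATAAA was found on either strand for 35 genes (57.4%, 44.1 to 70.0), against 15.7% of all genes and 13.6% of all windows. These were 4 of 6 H1, 11 of 18 H2A, 8 of 15 H2B, 4 of 10 H3 and 8 of 12 H4 genes. Since paired genes share bases, a match can be counted for both, and the matches fell on 35 places in the genome. Read on the strand of the gene alone, TATAAA was found for 30 genes (49.2%, 36.1 to 62.3), against 9.77% of all genes. In H2B the count was then 4 of 15, and in H2A 10 of 18. On the strand of the gene there were 31 matches, from -250 to 42 with a median of -32, and 12 of them lay between -40 and -20, around the usual place of a TATA box. Some of the rest lay after the RefSeq start, as at 16 for Hist1h2ah, 22 for Hist1h2ak and 42 for Hist1h4a. RefSeq starts need not be sites where transcription begins, so a match outside that range is not thereby misplaced.

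Other boxes were limited to some classes. The octamer was found for 14 genes (23.0%, 13.2 to 35.5), against 1.97% of all genes and 1.74% of all windows: 7 of 18 H2A, 7 of 15 H2B and 0 of the 28 H1, H3 and H4 genes. All 7 H2A matches read on the strand of the gene and all 7 H2B matches on the other strand. Of the 14 genes 9 belonged to head-to-head pairs, a share near that of all H2A (13 of 18) and H2B genes (12 of 18). The matches fell on 11 places in the genome, since paired genes share bases. Hist1h2be had it in 1 of its 2 windows. The H1 box was found for 5 of 6 linker genes (83.3%, 35.9 to 99.6), all but Hist1h1a, and for 9 of 61 histone genes (14.8%, 6.98 to 26.2), against 8.22% of all genes and 7.18% of all windows. The other 4 were Hist1h2aa, Hist1h2ab, Hist1h2ba and Hist1h2bm.

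The cyclic AMP response element was found for 4 genes (6.56%, 1.82 to 15.9), against 2.03% of all genes and 1.79% of all windows. These were the pair Hist1h2ag and Hist1h2bj, whose match is the same 8 bases, and Hist1h4a and Hist1h4h. Of the MYB forms, CAACTG was found for 12 genes (19.7%, 10.6 to 31.8), against 15.4% of all genes and 13.7% of all windows. TAACTG was found for 7 (11.5%, 4.74 to 22.2), against 11.4% of all genes and 10.1% of all windows. Since paired genes share bases, the matches fell on 8 places in the genome for CAACTG and 6 for TAACTG. The share over all genes lay below the interval of the histone genes for TATAAA, the CCAAT box and the octamer, and inside it for both MYB forms, the cyclic AMP response element and the H1 box. On the strand of the gene alone the H1 box was found for 13.1% of histone genes (5.84 to 24.2) and 4.12% of all genes, below the interval. Among the testis variants a MYB form was found in Hist1h2ba and Hist1h2aa, at the site they share, and neither MYB form was found in the window of Hist1h1t.

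**Figure D3:**
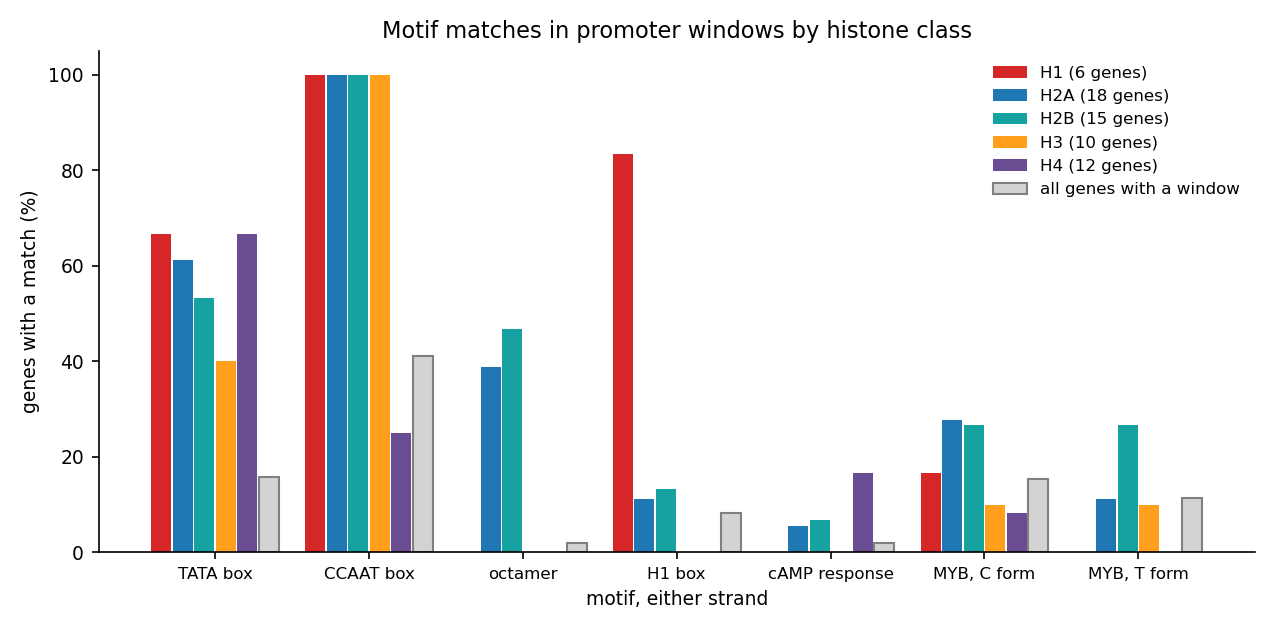
Share of genes with a match on either strand of a promoter window (percent), by histone class in colour and over all 27025 genes of the RefSeq table in grey. The CCAAT box reaches 100% in H1, H2A, H2B and H3 and 25% in H4, the octamer appears in H2A and H2B, and the H1 box is at 83.3% in H1.

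Most histone models were short and unspliced. All models had a single exon in 61 of 67 genes (91.0%, exact 95% interval 81.5 to 96.6), against 13.1% of all genes with a RefSeq-derived model. The median spliced length of the 68 RefSeq-derived models was 466.5 nt (quartiles 386.25 and 680), against 2371 nt over all RefSeq-derived models and 939 nt over the 3053 with a single exon. By class the median was 312 nt in H4, 393 nt in H2A, 468 nt in H2B, 485.5 nt in H3 and 1236.5 nt in H1. The linker genes spread widely, with 672 nt for Hist1h1b, 747 nt for Hist1h1a, 912 nt for Hist1h1t, 1561 nt for Hist1h1c, 1931 nt for Hist1h1e and 2977 nt for Hist1h1d, the longest RefSeq-derived histone model. The testis linker gene Hist1h1t thus lay among the shorter of its class. All 6 linker models come from the annotation, so this order is not evidence about testis transcripts.

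Core histone models clustered at fixed lengths. Of 13 H4 models 8 were 312 nt long, of 18 H2A models 8 were 393 nt, of 19 RefSeq-derived H2B models 7 were 381 nt and of 12 H3 models 4 were 411 nt, in all 27 of 62. These lengths are 104, 131, 127 and 137 codons, the size of the coding region with its stop codon, so models of this size have no room for untranslated sequence. The testis core genes were of this kind, with 390 nt for Hist1h2aa and 384 nt for the RefSeq-derived model of Hist1h2ba. These are lengths of the annotation and are not evidence that testis transcripts lack untranslated sequence. The CUFF model of Hist1h2ba, described below, had 2141 nt. Over all classes 46 of 63 single-exon models had a length divisible by 3 (73.0%, 60.3 to 83.4), against 58.7% of all single-exon RefSeq-derived models. The shortest histone models were the 8 H4 models of 312 nt, those of Hist1h4a, Hist1h4b, Hist1h4c, Hist1h4d, Hist1h4f, Hist1h4j, Hist1h4k and Hist1h4n.

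At the other extreme, 13 RefSeq-derived models of 12 genes exceeded 1000 nt. After Hist1h1d the longest were Hist4h4 (2879 nt), Hist2h2be (2618 nt), Hist1h2be (2506 and 2480 nt, 2 exons) and Hist1h2ac (2493 nt). Hist1h2br (2121 nt, 2 exons), Hist3h2a (1990 nt), Hist1h1e, Hist2h3c1 (1825 nt), Hist1h1c, Hist2h3c2 (1020 nt) and Hist1h3f (1003 nt) made up the rest. Each core class thus had some models several times the coding length while most were near it. All 13 come from the annotation, so their lengths are not evidence of testis transcripts.

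**Figure D4:**
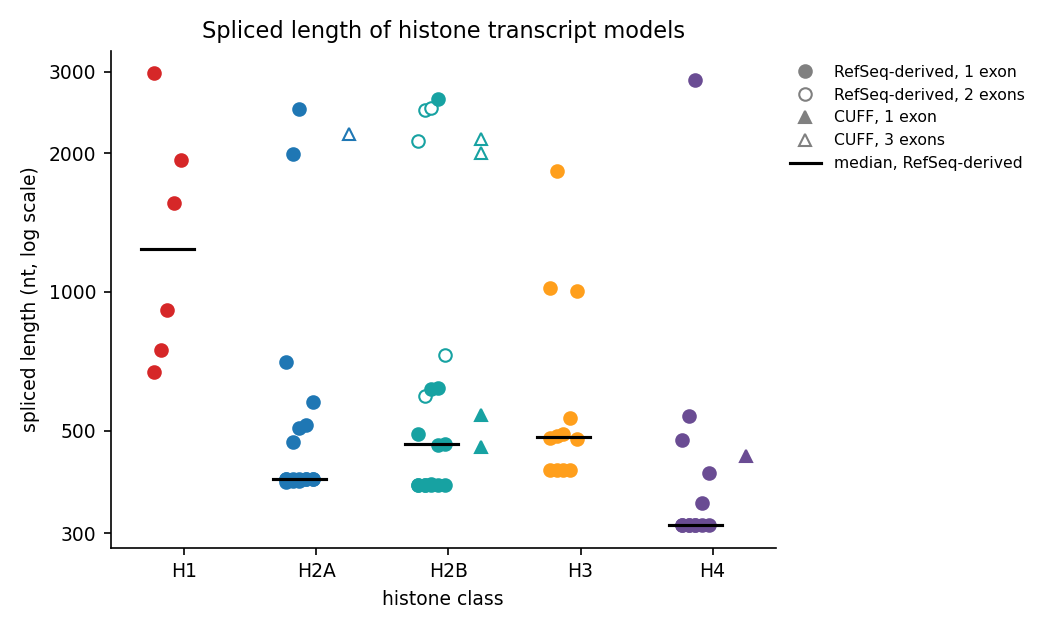
Spliced length of each of the 74 models in nt on a log scale, by class; circles are RefSeq-derived and triangles CUFF models, filled for 1 exon and open for more, and the black line is the median of the RefSeq-derived models. Core classes pile up at 312 to 411 nt with a tail above 1000 nt, H1 is spread from 672 to 2977 nt, and the open symbols are in H2A and H2B.

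In 3 places the models of 2 near-identical histone genes overlapped on the same strand. Hist1h2ap (393 nt) lay wholly inside Hist1h2ao (514 nt), Hist1h4n (312 nt) inside Hist1h4m (405 nt) and Hist2h2aa2 (393 nt) inside Hist2h2aa1 (578 nt). In the RefSeq annotation of GRCm38.p6 the genes of each of these pairs do not overlap. Their positions in the table are therefore uncertain. Of the head-to-head pairs of Hist1h2br, that with Hist1h2ap was also head to head in GRCm38.p6, 134 bp apart, and that with Hist1h2ao was not.

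Spliced models were concentrated in class H2B. A model with more than 1 exon was present for 5 of 18 H2B genes (27.8%, 9.69 to 53.5), namely Hist1h2ba, Hist1h2bc, Hist1h2be, Hist1h2bp and Hist1h2br, and for 1 of the 49 others (2.04%, 0.0517 to 10.9), Hist3h2a. The difference was not tested. In Hist1h2bp, Hist1h2br and Hist1h2bc the RefSeq-derived model had a first exon of 404, 405 and 423 nt, just over the coding length of H2B, and a second exon of 190, 1716 and 305 nt after an intron of 1132, 1667 and 7554 nt. Hist1h2be was built the other way round, with a short first exon of 209 or 179 nt, an intron of 34949 or 34945 nt and a long last exon of 2297 or 2301 nt. For Hist1h2ba and Hist3h2a the splicing was in the CUFF model alone, and the RefSeq-derived model had 1 exon.

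CUFF models were present for 6 of the 67 genes (8.96%, 3.36 to 18.5), against 28.5% of all genes with a RefSeq-derived model. They are the models here that the RefSeq annotation did not supply, and all 6 were coded NM. The share of this code among all CUFF models is not given here, so the count is description only. Their starts lay 31 to 1464 nt upstream of the RefSeq starts. In each of the 6 genes the model ends were more than 50 nt apart, and over all genes with at least 2 models this held for 59.8%. The ends fell into 2 kinds: 3 CUFF models ended beyond the RefSeq end, by 3883 to 9680 nt, and 3 ended before it.

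The testis gene Hist1h2ba had a model that covered the whole RefSeq exon and ran on past it. The RefSeq-derived model was a single exon of 384 nt. CUFF.6519.1 (chromosome 13, 24021759 to 24026140, minus strand) started 115 nt upstream, had a first exon of 967 nt that went 468 nt past the RefSeq end, and continued through an exon of 87 nt to a last exon of 1087 nt, with introns of 1875 and 366 nt. Its spliced length was 2141 nt and its end lay 3883 nt beyond the RefSeq end. No other histone gene lay in that stretch, and the partner Hist1h2aa had its single RefSeq-derived model.

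Hist3h2a, an H2A gene of the small cluster on chromosome 11, had a similar layout. CUFF.3876.1 (58767773 to 58774111, plus strand) had exons of 1122, 124 and 951 nt, 2197 nt in all, with introns of 699 and 3443 nt. It started 414 nt upstream of the RefSeq start, so that 242 nt of its first exon lay antisense to Hist3h2bb-ps, the pseudogene that faces Hist3h2a in the head-to-head pairs. The first exon ended 708 nt into the RefSeq exon of 1990 nt, and the last exon ended 3935 nt beyond the RefSeq end, 337 bp before a CUFF model of Trim17 on the same strand.

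Hist1h2be was the site of a model across 3 histone genes. CUFF.6482.2 (chromosome 13, 23665859 to 23714427, minus strand) spanned 48569 bp with 2001 nt of exons. It started at the exact RefSeq start of the linker gene Hist1h1e, and its first exon of 1643 nt lay wholly within the Hist1h1e exon, 288 nt short of the end. It then took the same first intron, 34949 nt, as the longer RefSeq-derived model of Hist1h2be. After an exon of 331 nt in the last exon of Hist1h2be it skipped 11619 nt to a last exon of 27 nt inside the H2B gene Hist1h2bf. The RefSeq-derived models of Hist1h2be already started inside Hist1h1e, 1434 and 1464 nt from its start, sharing 209 and 179 nt with it. A last exon of 27 nt in a gene family with near-identical members rests on little sequence, and the placement of reads shared by such copies is not stated.

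The 3 remaining CUFF models were single exons that ended early. For Hist1h2bp, CUFF.6494.3 was 461 nt long, started 31 nt upstream and ended 26 nt past the end of the RefSeq first exon, 1296 nt before the RefSeq end. For Hist1h2bc, CUFF.6459.1 was 541 nt long, started 100 nt upstream and ended 18 nt past the RefSeq first exon, 7841 nt before the RefSeq end. Both therefore covered the first exon of an H2B gene that RefSeq gives as spliced, without the splice. For the H4 gene Hist1h4h, CUFF.6455.1 was 441 nt long, started 39 nt upstream and ended 76 nt before the RefSeq end of a 478 nt model. CUFF models of Gm11335 on the other strand, with 2 exons each, covered all 441 nt of it. Whether assembly used the strand of the reads is not stated, so the ends at Hist1h4h are uncertain.

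**Figure D5:**
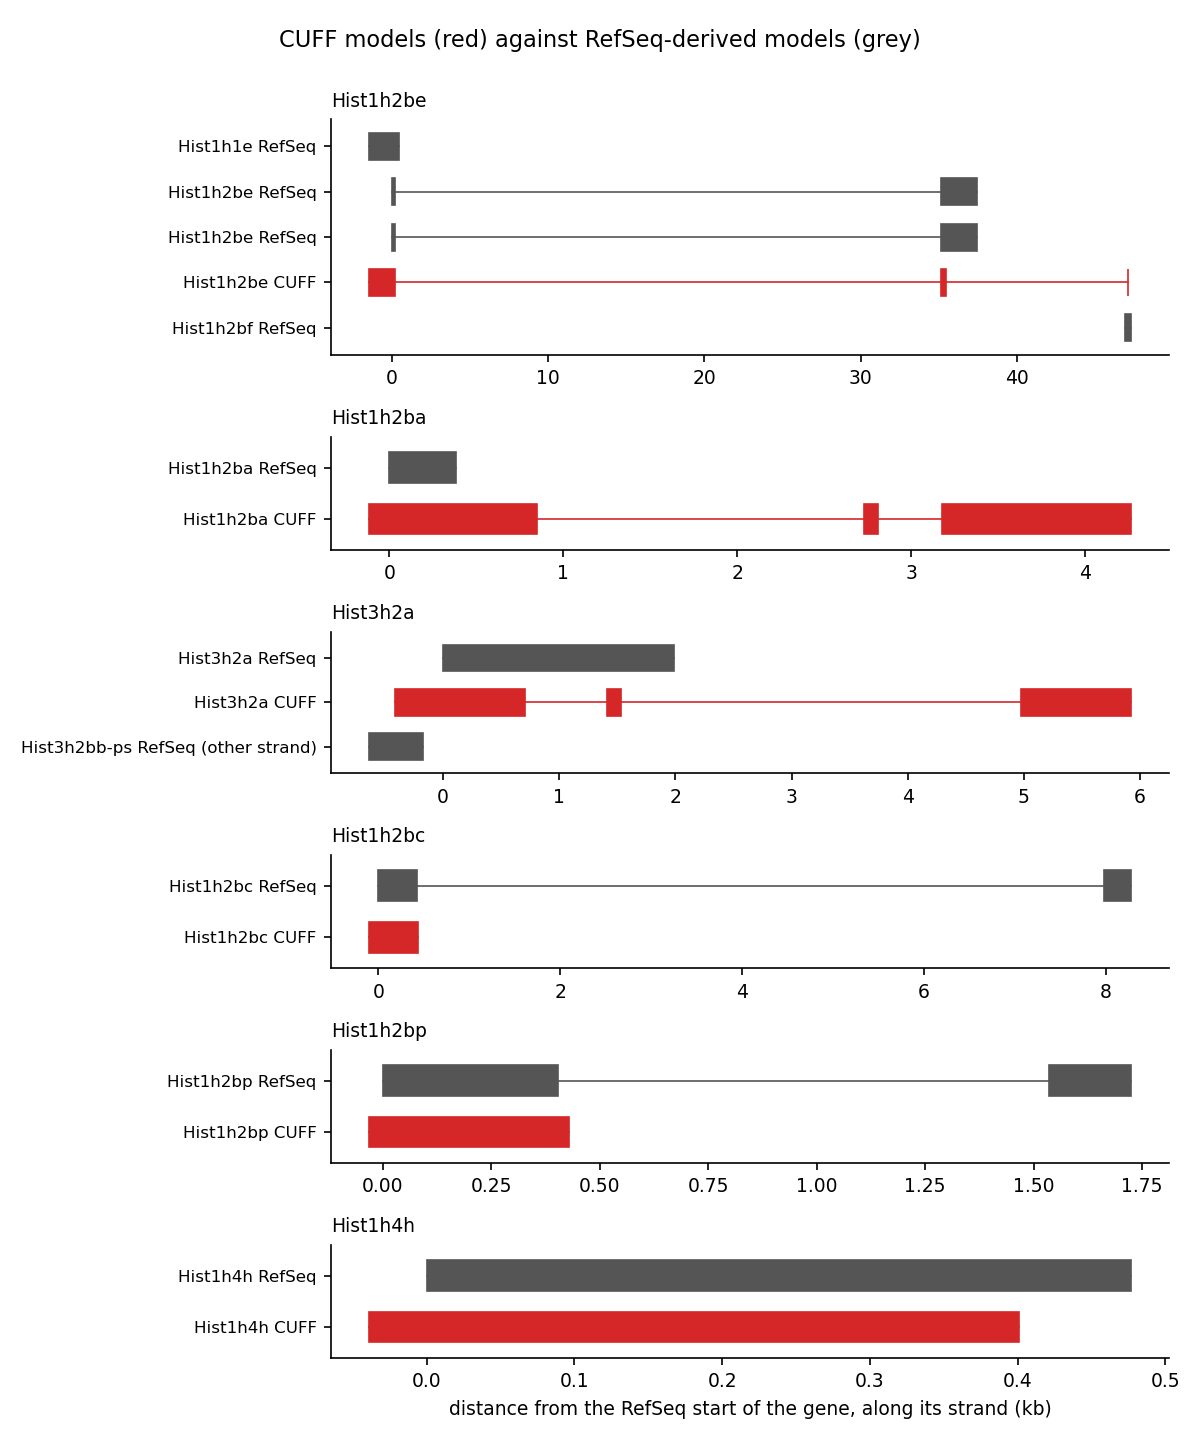
Exons (boxes) and introns (lines) of the 6 CUFF models in red and of RefSeq-derived models at the same places in grey, by distance in kb from the RefSeq start of the gene along its strand; each panel has its own scale, and for Hist1h2be the longer RefSeq-derived model sets the zero. Hist1h2be, Hist1h2ba and Hist3h2a run beyond the RefSeq end by 9680, 3883 and 3935 nt, and Hist1h2bc, Hist1h2bp and Hist1h4h stop before it.

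Most genes that act on histones were coded. Histone mRNA 3′ ends are formed by a machinery that includes the stem-loop binding protein Slbp, the U7 particle proteins Lsm10 and Lsm11, and the nuclease Cpsf3, and histone gene transcription needs Npat. Of 16 genes of histone mRNA processing and transcription 15 were found and 13 coded, where 62.3% of all genes were; Lsm11 and Hinfp, a factor of H4 gene transcription, had XX models alone and Rnu7 was not matched. Slbp had 2 models with 2 ends. Cstf2t, a testis polyadenylation factor, was a single exon of 3752 nt. All 10 histone chaperones were coded, against the same 62.3%, with 5 models and 4 ends for Nasp, which binds H1 and dimers of H3 with H4.

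Replacement and germline histone genes outside the clusters differed in structure. Of 19 such genes 16 were found, and 15 were coded, against 62.3% of all genes. H1foo, the oocyte linker histone, was the exception, and H2afb2, H2afb3 and H3f3c were not matched. In 7 of the 16 all models were single exons, which holds for 13.1% of all genes: H1fnt (1326 nt), H1f0 (2289 nt), Hils1 (796 nt), H2afb1 (525 nt), H2afj (1827 nt), H2afx (1359 nt) and H2afy3 (1911 nt). H1fnt and Hils1 are linker variants of spermatids. The replacement genes H3f3a, H3f3b, H2afz and H2afv, which are used outside DNA synthesis, had 4, 4, 5 and 5 exons.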

How the data were processed

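The deposited table was a BED file of 12 columns without a header, with 1 transcript model per line, and its values are positions, exon numbers and exon lengths in bp. The tools named for the series are TopHat2 2.0.4, on mm9, per the submitters' processing notes. The sources used here do not state how models were assembled or filtered. Members and lists were chosen with earlier results of these data known. All members could be named, with full values for testis variants, CUFF models, spliced models, extremes of length and ends, and the 10 closest pairs; Trim17 and the coded neighbours inside Hist1 were picked after their values were seen. Positions were counted from 1. Genes were grouped by symbol, starts were compared between any models of 2 genes, and ends within 50 nt counted as 1. Shares have exact Clopper-Pearson 95% intervals, which cover counting error only; genes are not replicates, and no significance test was run. Python 3.11.15, pandas 2.3.3 and scipy 1.17.1 were used, and the measures were tested on simulated data. Promoter windows were matched by RefSeq accession in GRCm38.p6 and never joined to mm9 positions. Protein sequences and a genome were not used here, so the planned protein identities and sequences at 3′ ends are not reported.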

Additional observations from a re-analysis of the deposited data

How the results depend on the processing

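Of 28 alternative settings 23 left the result within its interval or within 1.5 times the count. Several of these could not have moved. No histone gene lay on an unplaced sequence, and the cyclic AMP response element reads the same on both strands. Leaving out XX models removed only the single model of Hist1h1a, which is in no pair. Counting models that overlap another histone gene on the same strand gave 11 of 74 models in place of the 6 with _N in the code, and 10 of the 11 were RefSeq-derived. Head-to-head pairs fell from 13 to 5 at 200 bp, were 14 at 1000 bp and 12 with the outermost start of each gene, where Hist3h2a was lost. On the strand of the gene alone the octamer was found for 11.5% of histone genes (0.958% of all genes), CAACTG for 9.84% (7.84%) and TAACTG for 3.28% (5.96%), so that TAACTG passed from near the share of all genes to below it, with an upper bound of 11.3%. Counting the 62 windows in place of genes, an alternative chosen after the data were seen, left each motif inside its interval. Genes with ends more than 100 nt apart numbered 5, without Hist1h4h. No paired analysis was possible because each group had 1 library and the table gives no value per library. The depth of the libraries is unknown, so the absence of a CUFF model cannot be read as absence of a transcript.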

Other observations

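H1fx, which encodes the linker variant H1.X outside the histone clusters, had the longest model of the histone lists. Its RefSeq-derived model was a single exon of 1062 nt (chromosome 6, 87930415 to 87931476, minus strand). A CUFF model with its symbol was a single exon of 41643 nt (87902561 to 87944203), and a second with 2 exons had 41357 nt. H1fx and the Hist1h1a locus both lay under models named for piRNA loci. For H1fx these were models on the same strand, named by a chromosome band, of which the longest had 31712 nt (87912450 to 87944161) and covered the RefSeq-derived model. The RefSeq-derived and CUFF models of H1fx were coded NM, whereas the model of Hist1h1a was coded XX. The H1fx values were picked out after the table was seen.

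The 2 genes Hist2h2ab and Hist2h2ac faced each other tail to tail with 146 bp between their ends. Both models were of coding length, 393 and 390 nt.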
